A study of Mus musculus with 4 samples.

Results

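Transcripts of the intestinal epithelium were followed through 4 arrays of sorted mouse B cells, 2 of them from Peyer's patches (PP) and 2 from peripheral lymph nodes (pLN). The set comprised 34 genes of 18194 measured, represented by 55 of the 34958 probe sets annotated to a single gene symbol. They were chosen as genes of enterocytes, of goblet cells, of antimicrobial secretion and of epithelia in general, and were in part chosen by high signals on the 2 PP arrays. The level of these genes in PP and their difference between PP and pLN are therefore described without a test.

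Each array held RNA of 1 sorted population, pooled from 3 to 5 C57BL/6J wild type mice, and there was 1 array per group. GC PP and naive PP were germinal centre (GC) B cells, sorted as B220+PNA+Fas+, and naive B cells, sorted as B220+PNA-Fas-, from Peyer's patches of untreated mice. GC pLN and naive pLN were the same 2 populations from lymph nodes of mice immunised with TNP-KLH in incomplete Freund's adjuvant. Organ and immunisation therefore cannot be told apart. The gate removes cells by B220, PNA and Fas, and no epithelial marker was part of it. The labels do not say whether the naive and GC cells of an organ came from the same mice.

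The B cell identity of the samples was checked first. All 11 measured genes of a 12-gene B cell list were above the detection level on every array, among them Cd79a, a signalling chain of the B cell receptor, at 6813 (GC PP), 25286 (naive PP), 8077 (GC pLN) and 15281 (naive pLN). The detection level was the 90th percentile of 88 probe sets of genes from tissues such as retina, lens, muscle and testis. It stood at 62.1 on GC PP, 115 on naive PP, 50 on GC pLN and 69.6 on naive pLN, in signal units after scaling every array to a trimmed mean of 500. The naive arrays differed from the GC arrays in RNA quality, and naive PP differed from naive pLN. For Gapdh, the signal of the control probe set at the 3' end divided by that at the 5' end was 1.67 on GC PP against 96.4 on naive PP, and 1.48 on GC pLN against 18.7 on naive pLN. The 9 bacterial and phage hybridisation spike-ins had a median signal of 3071 on GC PP against 11565 on naive PP, and 3217 on GC pLN against 4588 on naive pLN.

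Peyer's patches are lymphoid follicles set in the wall of the small intestine and covered by a single layer of epithelium. Enterocytes of that layer take up and bind lipids and sugars, goblet cells secrete the mucus gel and its accessory proteins, and several epithelial lineages secrete antibacterial lectins into the lumen. Keratins, cadherins, claudins and Epcam hold the sheet together. Differentiation of this epithelium depends on the homeobox factors CDX1 and CDX2 and on the nuclear receptor HNF4A.

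The promoters of the 2 fatty acid binding proteins and the 2 antimicrobial lectins are shown because these 4 genes were bright on both PP arrays and below the detection level on both pLN arrays, and because each pair belongs to 1 family. Each is the 250 bases before the annotated start (RefSeq, GRCm38.p6), given 5' to 3' on the gene's strand. Capitals mark matches, on either strand, to letters known from binding sites of gut transcription factors. The letters were TTTAT for the CDX factors. For HNF1 factors they were GTTAAT. For HNF4 factors TGNACTTTG was used. For the GATA family the search took AGATAA. They lie at chr6:71199629-71199878 (Fabp1, plus strand), chr3:122894822-122895071 (Fabp2, plus strand), chr6:78370635-78370884 (Reg3b, plus strand) and chr6:78468875-78469124 (Reg3g, minus strand).
Fabp1: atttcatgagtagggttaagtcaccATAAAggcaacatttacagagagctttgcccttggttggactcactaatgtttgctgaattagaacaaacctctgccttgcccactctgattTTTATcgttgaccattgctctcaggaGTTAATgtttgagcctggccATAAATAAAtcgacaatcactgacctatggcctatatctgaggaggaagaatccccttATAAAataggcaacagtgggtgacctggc
Fabp2: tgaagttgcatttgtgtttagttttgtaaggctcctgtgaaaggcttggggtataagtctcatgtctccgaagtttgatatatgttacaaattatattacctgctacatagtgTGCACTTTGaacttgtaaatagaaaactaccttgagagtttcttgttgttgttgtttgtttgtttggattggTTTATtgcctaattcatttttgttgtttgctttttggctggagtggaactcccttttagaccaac
Reg3b: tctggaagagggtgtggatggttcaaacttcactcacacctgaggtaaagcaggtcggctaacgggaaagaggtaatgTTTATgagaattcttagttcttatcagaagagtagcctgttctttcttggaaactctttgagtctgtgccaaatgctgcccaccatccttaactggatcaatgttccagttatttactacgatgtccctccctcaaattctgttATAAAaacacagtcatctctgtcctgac
Reg3g: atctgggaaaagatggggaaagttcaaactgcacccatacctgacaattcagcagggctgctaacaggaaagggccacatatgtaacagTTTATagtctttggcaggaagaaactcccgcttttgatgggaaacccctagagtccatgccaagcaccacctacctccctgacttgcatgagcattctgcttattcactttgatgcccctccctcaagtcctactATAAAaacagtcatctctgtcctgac
The Reg3b and Reg3g promoters matched at 173 of 250 bases (69.2%) in a global alignment. The CDX letters read on the opposite strand, ATAAA, are also the end of a TATA box. In the Fabp1, Reg3b and Reg3g windows the match nearest the start began 29, 28 and 26 bases before it and followed a T, as in a TATA box. The CDX letters were found in 12 of the 27 gut epithelial promoters in the table (44.4%), against 38.1% of all 27025 promoters of this length. The HNF4 letters were in 2 of 27 (7.41%), those of Fabp2 and Apoa4, against 1.21% of all. GTTAAT was in 4 of 27 (14.8%) against 6.52%, and AGATAA in 4 of 27 (14.8%) against 10.3%. A match is a stretch of letters, not a measured binding site, and promoters of 7 of the 34 genes were not used here.

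Of the 34 genes, 20 were above the detection level on GC PP and 20 on naive PP, against 2 on GC pLN and 7 on naive pLN. Over all 18194 genes the shares were 55.8% on GC PP, 49.2% on naive PP, 55.3% on GC pLN and 54% on naive pLN. Both PP arrays detected 16 of the genes. Guca2b, Cdh1, Epcam and Tff3 were above the level on GC PP but not on naive PP, and Vil1, Cdx2, Fcgbp and Spink4 on naive PP but not on GC PP. The 7 genes detected in pLN, all of them on naive pLN, were Apoa1, Apoa4, Zg16, Krt18, Pigr, Cdh17 and Lgals4. Cdh17 and Lgals4 were also above the level on GC pLN. On naive pLN, Apoa1, Apoa4, Zg16 and Pigr passed it by the probe set used alone, their other probe sets being below it. The other 10 genes were above the level on no array. By construction, about 1 in 10 probe sets of genes foreign to the sample passes the level.

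**Figure D1:**
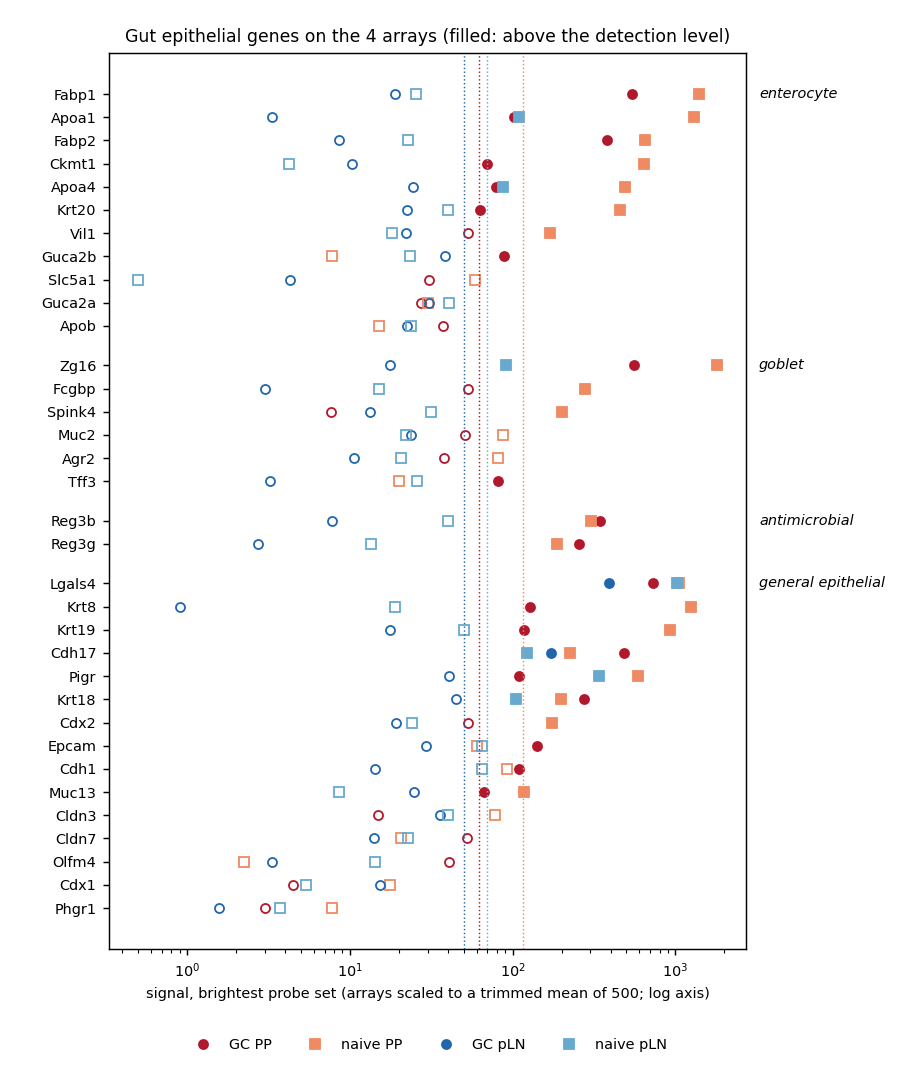
Signal of each gut epithelial gene on the 4 arrays, by lineage (log axis). Each point is 1 array, filled where it lay above that array's detection level (dotted line of the same colour), and the PP points of genes such as Fabp1, Fabp2, Zg16, Krt8 and Reg3b lie far to the right of their pLN points.

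Between PP and pLN, the set was higher in PP on most genes. In GC cells 18 of the 34 genes had a PP signal at least 2-fold above that in pLN and 0 were lower, against a background of 4.98% higher and 1.72% lower among the 10455 genes above the level on either GC array. In naive cells 16 of the 34 passed 2-fold upward in PP and 0 downward, against 9.56% higher and 15.7% lower of 10142 genes. In both cell types together 12 were higher, against 0.666% of 11107 genes. The background shares are of genes above the level, of which the set held 20 in GC cells, 20 in naive cells and 24 over both. These 2-fold counts take a difference on the log2(signal + 14.2) scale and require the PP array to be above its level. The median log2 difference over all 34 genes was 1.28 in GC cells and 1.86 in naive cells, beside 0.06 and 0.1 over all genes. Over genes above the level on either array it was 2.08 and 2.7 for the set, beside 0.02 and -0.11 for all such genes. Since PP signals helped to choose the genes, these counts describe the choice and are no test of it. The naive PP array had a higher Gapdh 3' to 5' ratio and spike-in median than naive pLN. The part of RNA quality in the naive differences between PP and pLN was not tested. In bulk RNA of this kind, fewer cells of a type and less RNA per cell cannot be told apart.

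The lipid-handling genes of enterocytes ranged from wide gaps between the organs (Fabp1, Fabp2) to none detectable at the level (Apob). Fabp1, the liver-type fatty acid binding protein that is abundant in small intestinal enterocytes (chr6:71199879-71205034), read 543 on GC PP and 1389 on naive PP, against 18.9 on GC pLN and 25.4 on naive pLN. Both PP signals lay above both pLN signals, which were under their levels, so that Fabp1 was at least 10.9-fold higher in PP in GC cells and at least 19.9-fold in naive cells. Such bounds set the bright signal against the detection level of the dim array. Its second probe set gave 248 on GC PP and 1058 on naive PP, against 5.02 on GC pLN and 11.5 on naive pLN.

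Fabp2, the intestinal fatty acid binding protein (chr3:122895072-122899506), read 379.7 on GC PP and 650.1 on naive PP, against 8.52 on GC pLN and 22.7 on naive pLN. The gap was at least 7.59-fold in GC cells and at least 9.34-fold in naive cells. Apoa1 and Apoa4, the main apolipoproteins of intestinal lipid particles along with Apob, lie 10374 bases apart on chromosome 9. Apoa1 read 102 on GC PP and 1298 on naive PP, against 3.33 on GC pLN and 109.9 on naive pLN, so the naive pLN signal was above that of GC PP. All 4 Apoa1 probe sets were brighter in PP, by 1.71 to 2.73 on the log2 scale in GC cells and by 3.25 to 4.44 in naive cells. Apoa4 read 79.4 on GC PP and 491 on naive PP, against 24.5 on GC pLN and 87.0 on naive pLN. In GC cells its place among the genes at least 2-fold higher in PP rests on that probe set alone. The second Apoa4 probe set read 8.3 on GC PP and 2.43 on GC pLN, both below the level, a log2 difference of 0.44. In naive cells the second probe set was above the level in PP, at 137.3, with a log2 difference of 2.65. Apob was below the level on all 4 arrays, at 37.4 on GC PP, 15.0 on naive PP, 22.3 on GC pLN and 23.8 on naive pLN.

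Of the other enterocyte genes, 2 more were at least 2-fold higher in PP in both cell types. Ckmt1, a mitochondrial creatine kinase, read 69.6 on GC PP and 637 on naive PP, against 10.3 on GC pLN and 4.20 on naive pLN. This rests on 1 Ckmt1 probe set, since its second was below the level on all 4 arrays. That probe set read 34.2 on GC PP and 111.9 on naive PP, against 7.28 on GC pLN and 36.5 on naive pLN. Krt20, a keratin of mature surface enterocytes, read 63.4 on GC PP and 459 on naive PP, against 22.4 on GC pLN and 39.9 on naive pLN. The GC PP signals of both were close to the level of 62.1, and the bounds were only 1.39-fold for Ckmt1 and 1.27-fold for Krt20 in GC cells. Vil1, the microvillus protein villin, passed the level on naive PP alone, with 53.1 on GC PP and 169 on naive PP, against 22.1 on GC pLN and 18.2 on naive pLN. Guca2b, a ligand of the intestinal guanylate cyclase receptor, passed it on GC PP alone, at 88.8. Slc5a1, the sodium-glucose cotransporter of the brush border, and Guca2a were below the level throughout, with highest signals of 58.7 on naive PP for Slc5a1 and 40.8 on naive pLN for Guca2a.

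Among the 6 goblet cell genes, Zg16 had the largest difference between PP and pLN in both cell types. Zg16, a mucus lectin that binds Gram-positive bacteria (chr7:127050156-127052675), read 556 on GC PP and 1806 on naive PP, against 17.7 on GC pLN and 90.4 on naive pLN. In GC cells the PP signal exceeded the pLN level at least 11.1-fold, and the naive PP signal was 20-fold that of naive pLN. Its 3 probe sets were all brighter in PP, by 3.31 to 4.16 on the log2 scale in GC cells and by 1.98 to 4.12 in naive cells. The principal gel-forming mucin of the intestine, Muc2, was below the level everywhere, at 50.8 on GC PP and 87.6 on naive PP, against 23.8 on GC pLN and 22.2 on naive pLN.

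Fcgbp, a mucus protein cross-linked with that mucin, read 53.0 on GC PP and 279.5 on naive PP, against 2.99 on GC pLN and 15.0 on naive pLN. Spink4, a goblet cell peptide of the Kazal inhibitor family, passed the level on naive PP alone, at 7.62 on GC PP and 201 on naive PP, against 13.2 on GC pLN and 31.7 on naive pLN. Tff3, the intestinal trefoil peptide, showed the other pattern, with 80.7 on GC PP and 20.1 on naive PP, against 3.21 on GC pLN and 26.0 on naive pLN. Agr2, a disulfide isomerase needed for mucin folding, was below the level on all 4 arrays, with its 2 PP signals (37.8 and 80.9) above its 2 pLN signals (10.6 and 20.6). Only 1 of the 6 goblet genes, Zg16, was counted as at least 2-fold higher in PP in both cell types, a count that requires detection. Without that requirement Fcgbp and Agr2 also passed 2-fold in both. Their log2 differences were 1.97 and 1.07 in GC cells and 3.33 and 1.45 in naive cells. Tff3 and Spink4 were each above the level on a single PP array, a different one for each.

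Both antimicrobial lectins had a PP signal in GC cells at least as high as that in naive cells, as did some other genes of the set. Reg3b and Reg3g, secreted C-type lectins induced by the gut microbiota, are 2 genes of one family on chromosome 6, 92802 bases apart. Reg3b (chr6:78370885-78373466) read 345 on GC PP and 301 on naive PP, against 7.73 on GC pLN and 40.0 on naive pLN. A second Reg3b probe set read 490.5 on GC PP and 224 on naive PP, against 4.12 on GC pLN and 10.7 on naive pLN. Reg3g (chr6:78466269-78468874) read 254 on GC PP and 186 on naive PP, against 2.71 on GC pLN and 13.5 on naive pLN. For both genes the pLN signals were below the level and the PP signals above it, by bounds of at least 6.90-fold (Reg3b) and 5.09-fold (Reg3g) in GC cells and 4.32-fold and 2.67-fold in naive cells. Probes of such related genes can cross-hybridise, so the 2 readings are not fully separate.

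Keratins of simple epithelia were high in PP as well. Krt8, the type II keratin of simple epithelia (chr15:101996711-102004342), read 128 on GC PP and 1241 on naive PP, against 0.902 on GC pLN and 19.0 on naive pLN. The bound was at least 2.57-fold in GC cells and at least 17.8-fold in naive cells, and the other 2 probe sets of Krt8 showed the same order. Its pairing partner Krt18, located 23873 bases away, read 274 on GC PP and 197.5 on naive PP, against 45.0 on GC pLN and 104 on naive pLN. In GC cells Krt18 exceeded its pLN level in PP by at least 5.49-fold, and in naive cells it was 1.89-fold higher. Krt19 read 117 on GC PP and 926.5 on naive PP, against 17.6 on GC pLN and 50.3 on naive pLN. The 2 partner keratins therefore differed, Krt8 being brighter on naive PP than on GC PP and Krt18 brighter on GC PP.

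Of the adhesion genes, Epcam and Cdh1 were above the level on a single array. Epcam, the epithelial cell adhesion molecule, read 140 on GC PP and 60.5 on naive PP, against 29.2 on GC pLN and 64.8 on naive pLN. Cdh1, encoding E-cadherin, read 109 on GC PP and 92.0 on naive PP, against 14.2 on GC pLN and 64.9 on naive pLN. That array was GC PP for both. The tight junction genes Cldn3 and Cldn7 were below the level on all arrays, and the 4 probe sets of Cldn3 disagreed in direction in both cell types.

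Muc13, a transmembrane mucin, read 67.1 on GC PP and 117 on naive PP, both just above the level, against 24.7 on GC pLN and 8.60 on naive pLN. A second Muc13 probe set was below the level on all 4 arrays. It read 45.8 on GC PP and 32.5 on naive PP, against 2.2 on GC pLN and 3.8 on naive pLN. Unlike the probe set used, it was brighter on GC PP than on naive PP. The transcription factor gene Cdx2 passed the level on naive PP alone, with 52.8 on GC PP and 174 on naive PP, against 19.2 on GC pLN and 24.1 on naive pLN. Its relative Cdx1 was below the level on all 4 arrays, as were Olfm4, a marker of crypt base cells, and Phgr1, which stood between 1.58 and 7.79.

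Lgals4, Cdh17 and Pigr were also above the level in pLN, and of these Lgals4 missed 2-fold in both cell types. Lgals4, a galectin of the intestinal epithelium, read 727 on GC PP and 1058 on naive PP, against 392 on GC pLN and 1023 on naive pLN. It was 1.85-fold higher in GC cells of PP and 1.03-fold in naive cells, and the naive pLN signal lay above that of GC PP. Cdh17, an intestinal cadherin that has also been described on mouse B lineage cells, read 480 on GC PP and 226 on naive PP, against 171 on GC pLN and 123 on naive pLN. Pigr, the receptor that carries polymeric IgA across the epithelium, read 109 on GC PP and 593 on naive PP, against 40.6 on GC pLN and 339.9 on naive pLN. A second Pigr probe set read 109 on GC PP and 159 on naive PP, against 48.2 on GC pLN and 11.3 on naive pLN, so its naive pLN signal was not above the level.

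**Figure D2:**
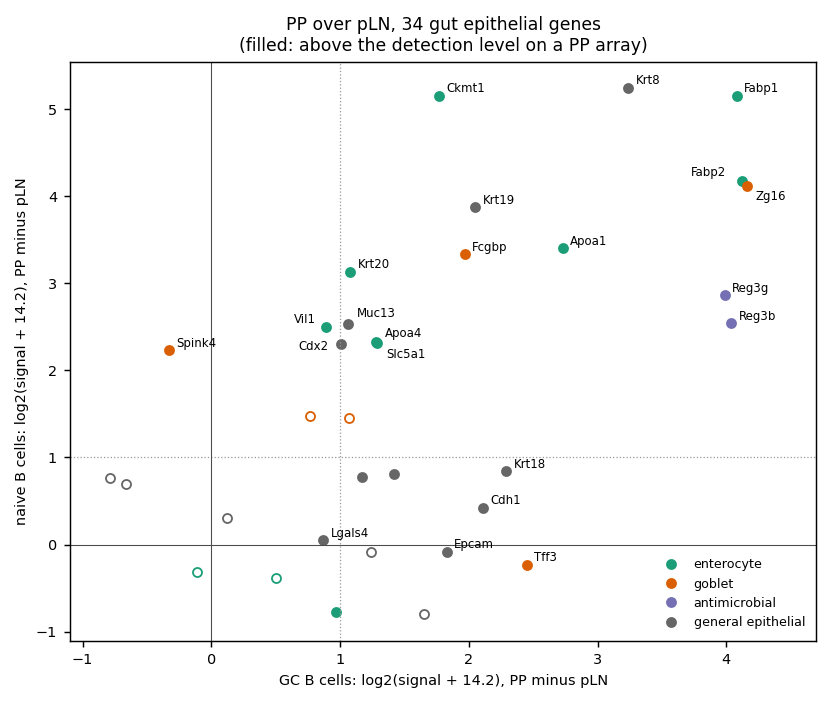
Difference between PP and pLN on the log2(signal + 14.2) scale for the 34 genes, in GC cells (horizontal) and naive cells (vertical), coloured by lineage. Dotted lines mark 2-fold, and 12 genes above the level on both PP arrays lie beyond both lines, among them Fabp1, Fabp2, Zg16, Krt8 and the 2 Reg3 genes.

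Across probe sets the direction held for most genes. Of the 15 genes with several probe sets, 14 had all of them brighter in PP in GC cells and 11 in naive cells. Cldn3 was the exception in GC cells. The 14 include Agr2, Apob and Slc5a1, which were below the level on every array. In naive cells the exceptions were Cldn3, Slc5a1, Apob and Epcam, none of which was above the level on naive PP. Both PP signals exceeded both pLN signals for 16 of the 24 genes that were above the level on at least 1 array, against 6.54% of all such genes. Since PP signals helped to choose the set, this describes the choice and is no test of it. The 2-fold counts were smaller when signals under the detection level were raised to it, at 10 genes in GC cells, 15 in naive cells and 7 in both.

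GC and naive cells were then compared over the 2 organs. The genes were not chosen on this contrast, but 2 of its 4 arrays are the PP arrays whose signals helped to choose them, so its p-values are not independent of that choice. The fit used limma with organ as a block on 10289 genes above the level on at least 2 arrays, and 16 of the 34 genes were among these. All 16 were above the level on both PP arrays, and 9 of them passed this filter through the PP arrays alone, so the counts describe those 16 and not the set. In GC cells 7 of the 16 were called lower, 0 higher and 9 were not called at an adjusted p under 0.05, against a background of 22.8% lower and 23.1% higher over all genes tested. The median log2 fold of the 16 was -1.11, beside -0.06 over all tested genes. The error here comes from how far the fold differed between PP and pLN (1 residual degree of freedom, shrunk towards the other genes), and says nothing of variation among mice.

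The called genes were Apoa1, Pigr, Krt8, Krt19, Apoa4, Zg16 and Krt20. Apoa1 fell by 3.16 ± 0.49 in GC cells (log2 fold ± SE, limma adjusted p = 0.000358) and was lower in both organs. In pLN that rests on 1 probe set, since the other 3 Apoa1 probe sets read 28.6 to 54.8 on naive pLN, below the level. Pigr had a fold of -2.50 ± 0.46 (limma adjusted p = 0.00111), with GC below naive signals in PP (109 against 593) and in pLN (40.6 against 339.9). With the mean of both Pigr probe sets the fold was -1.05. Krt8 differed by -2.14 ± 0.57 (adjusted p = 0.00918), Krt19 by -1.93 ± 0.55 (adjusted p = 0.0123) and Krt20 by -1.59 ± 0.58 (adjusted p = 0.0385). The pLN signals of these 3 keratins were below the level in both cell types, so their difference was measured in PP alone. There it was -3.14 for Krt8, -2.84 for Krt19 and -2.61 for Krt20 on the log2 scale. The fitted folds average this PP difference with a difference of undetected pLN signals. All 3 also passed the filter through the PP arrays alone, so their adjusted p-values support no difference over both organs. Apoa4 fell by 1.91 ± 0.51 (adjusted p = 0.00916) and Zg16 by 1.69 ± 0.45 (adjusted p = 0.00877), and for both the naive pLN signal was above the level. The other 2 Zg16 probe sets differed less between the PP arrays, by -0.73 and -0.07 on the log2 scale, against -1.67 for the one used.

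Not called were Ckmt1 (-1.27 ± 0.70), Lgals4 (-0.94 ± 0.40), Fabp1 (-0.80 ± 0.49), Fabp2 (-0.73 ± 0.49), Reg3b (-0.56 ± 0.54), Krt18 (-0.28 ± 0.52), Reg3g (-0.15 ± 0.54), Muc13 (0.04 ± 0.57) and Cdh17 (0.74 ± 0.46). The values are log2 folds of GC over naive cells with the limma SE, and their adjusted p ran from 0.0722 for Lgals4 to 0.96 for Muc13. Cdh17 had the highest fold of the 16 and was brighter in GC cells of both organs. Reg3b, Reg3g and Krt18 were brighter in GC cells in PP. In pLN, Krt18 was above the level in naive cells alone and was dimmer in GC cells. Reg3b and Reg3g were below the level in both cell types of pLN, so no direction was measured there.

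The 3' to 5' ratios and the spike-in signals given above moved with this contrast. The calls ended when the arrays were scaled to their spike-ins, with 0 of the 16 genes called in either direction. Lower calls fell over all genes too, from 2341 of 10289 in the main fit to 22 of 10294 scaled this way, with 830 called higher. Under that scaling Apoa1 stood at -0.93 (limma adjusted p = 0.607) and Pigr at -1.38 (limma adjusted p = 0.475). Over the 19 alternatives run for each, the limma adjusted p lay between 9.7e-09 and 0.607 for Apoa1, called in 15, and between 2.59e-06 and 0.475 for Pigr, called in 17. Without the organ term only Pigr was called, beside 2136 genes called lower and 1967 higher of all 10289 tested. The part of RNA quality in these folds was not tested.

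**Figure D3:**
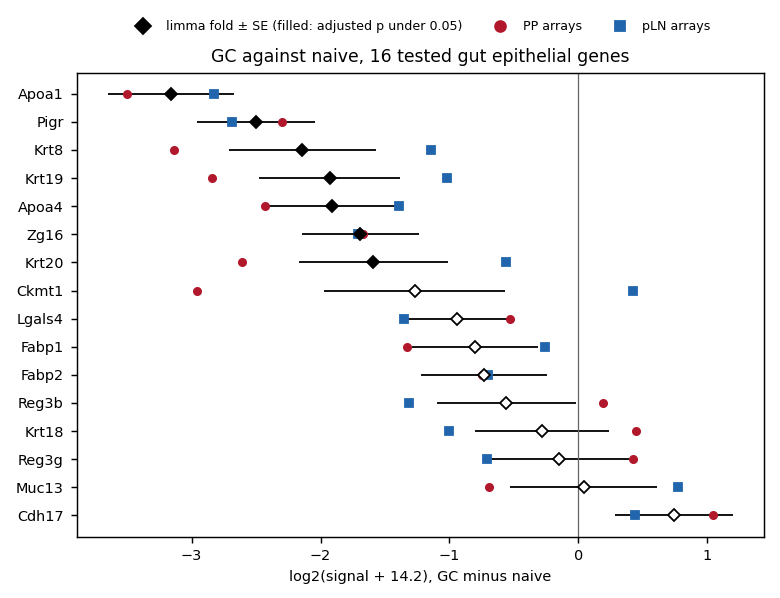
GC minus naive difference on the log2(signal + 14.2) scale for the 16 tested genes. Diamonds give the limma fold with its SE, filled where called, and circles and squares give the PP and pLN arrays, of which the PP circle of Apoa1 lies lowest, at -3.50.

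Within Peyer's patches the genes did not keep one ratio between the 2 cell types. Over the 16 genes above the level on both PP arrays, the GC signal divided by the naive signal ranged from 0.0787 (Apoa1) to 2.12 (Cdh17), with a median of 0.35. It was 0.103 for Krt8, 0.127 for Krt19 and 0.138 for Krt20, but 1.39 for Krt18. Zg16 stood at 0.308, Fabp1 at 0.391 and Fabp2 at 0.584, and the antimicrobial genes at 1.15 (Reg3b) and 1.37 (Reg3g). In all, 12 of the 16 were dimmer in GC cells, beside 54.8% of the 8418 genes above the level on both PP arrays, whose median ratio was 0.871. The spike-ins were brighter on naive PP by 2.02-fold to 6.4-fold, with a median of 4.07. These are ratios of single arrays and have no test.

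By lineage, summed signals gave the same picture. The 11 enterocyte genes summed to 1475 on GC PP and 5205 on naive PP, against 206 on GC pLN and 396 on naive pLN. The 6 goblet genes summed to 786 on GC PP and 2475 on naive PP, against 71.5 on GC pLN and 206 on naive pLN. The 2 antimicrobial genes summed to 599.6 on GC PP and 487 on naive PP, against 10.4 on GC pLN and 53.5 on naive pLN, the only group with its higher PP sum in GC cells. The 15 general epithelial genes summed to 2320 on GC PP and 4812 on naive PP, against 825 on GC pLN and 1908 on naive pLN, with Lgals4 giving the largest part of the pLN sums.

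Further epithelial genes, outside the 34, were read from 8 lists of 104 genes, of which 93 were measured. Above the level were 28 on GC PP and 21 on naive PP, against 20 on GC pLN and 14 on naive pLN. At least 2-fold higher in PP were 11 in GC cells and 14 in naive cells, with 2 lower in GC cells and 0 in naive cells. Among genes above the level on either array of the cell type, 4.98% and 9.56% were higher. That base leaves out undetected genes, unlike the 93. The median log2 difference of the 93 was 0.37 in GC cells and 0.65 in naive cells, beside 0.06 and 0.1 over all genes. Most of the 93 were below the level. The probe sets of foreign genes that set the level were also brighter in PP. Their median signal was 13.9 on GC PP against 9.62 on GC pLN, and 32 on naive PP against 14.9 on naive pLN. The part of this background in the medians of the 93 was not tested.

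The 5 genes higher in both cell types were Rbp2, Fabp6, Mep1b, Clu and Hnf4a. Rbp2, the retinol-binding protein of enterocytes, read 199 on GC PP and 388 on naive PP, against 18.6 on GC pLN and 34.1 on naive pLN. Fabp6, the bile acid binding protein of the ileum, read 179.5 on GC PP and 406 on naive PP, against 7.61 on GC pLN and 27.8 on naive pLN. For Rbp2 and Fabp6 the pLN signals were all below the level. Hnf4a, named here after its values were seen like Mep1b, read 77.7 on GC PP and 206 on naive PP, against 9.19 on GC pLN and 6 on naive pLN. Mep1b, a brush border metalloprotease, read 62.4 on GC PP and 254 on naive PP, against 14 on GC pLN and 22.7 on naive pLN. Clu, clusterin, which follicular dendritic cells also make, read 396 on GC PP and 812 on naive PP, against 67.2 on GC pLN and 248 on naive pLN.

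Genes of other secretory and crypt lineages were read next. Of 11 enteroendocrine genes, 0 were above the level on GC PP and 1 on naive PP (Tac1, at 143), against 0 on both pLN arrays. Of 6 measured Paneth cell genes, 0 were 2-fold higher in PP in GC cells and 2 in naive cells, Lyz1 and Nupr1. Nupr1, a stress-responsive nuclear protein, read 47.2 on GC PP and 122 on naive PP, against 19.4 on GC pLN and 6.2 on naive pLN. Lyz1 was detected on all 4 arrays, at 689 on GC PP and 1046 on naive PP, against 388 on GC pLN and 144 on naive pLN. Its close relative Lyz2, a macrophage lysozyme, can cross-hybridise and read 369 on GC PP and 50.3 on naive PP, against 244 on GC pLN and 42.3 on naive pLN. Of 7 stem cell genes, Rnf43 was higher in GC cells of PP (434 on GC PP against 84.7 on GC pLN) and 0 were higher in naive cells. Lgr5, named here after its values were seen, was lower in GC cells of PP (39.4 on GC PP against 114.9 on GC pLN). Of the 10 other goblet cell genes, 0 were 2-fold higher in PP in either cell type. Of 10 genes of follicle-associated epithelium and M cells, 2 were higher in GC cells and 1 in naive cells. In GC cells 1 was lower, Pglyrp1, with 255.5 on GC PP against 1060.7 on GC pLN. Tuft cell genes were above the level in 2 of 6 on GC PP and 0 of 6 on naive PP, against 3 of 6 on GC pLN and 1 of 6 on naive pLN, and 1 of 6 was 2-fold higher in PP in GC cells and 0 in naive cells. That gene, Trpm5, an ion channel of tuft cells, was at 329 on GC PP and 44.6 on naive PP, against 51.8 on GC pLN and 6 on naive pLN. Avil, an actin-binding protein of tuft cells, ran the other way in GC cells, with 63.1 on GC PP and 105 on naive PP, against 85.0 on GC pLN and 99.2 on naive pLN.

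Lists of other cells that could accompany the sort were read in the same way. Among genes above the level on either array, 4.98% were higher and 1.72% lower in GC cells of PP. In naive cells 9.56% were higher and 15.7% lower. The list counts below are out of all measured genes, undetected ones included. Cd4, Thy1, Adgre1, Csf1r and Col3a1 are named here after their values were seen. Pancreatic acinar genes were above the level in 0 of 9 on GC PP and 1 of 9 on naive PP, against 0 of 9 on GC pLN and 1 of 9 on naive pLN. Gut smooth muscle genes were above it in 3 of 8 on GC PP and 1 of 8 on naive PP, against 2 of 8 on GC pLN and 1 of 8 on naive pLN, and summed to 300.0 on GC PP and 536 on naive PP, against 332 on GC pLN and 293 on naive pLN. T cell genes were 2-fold higher in GC cells of PP for 4 of 10, among them Cd3e with 244 on GC PP against 95.3 on GC pLN, and for 0 of 10 in naive cells, where Cd4 and Thy1 were lower in PP. Their sums were 1296 on GC PP and 826 on naive PP, against 743 on GC pLN and 1364 on naive pLN. Of 13 macrophage and dendritic cell genes, Itgax was 2-fold higher and Adgre1 lower in GC cells of PP, and Csf1r was higher and Adgre1 and Cd68 lower in naive cells of PP. Itgax read 424 on GC PP and 112 on naive PP, against 30.7 on GC pLN and 199 on naive pLN. Stromal genes were higher for 1 of 12 in GC cells (Cxcl13, 296 on GC PP against 41.9 on GC pLN) and for 3 of 12 in naive cells (Col3a1, Pdgfrb and Vwf). Of 3 measured erythroid genes, 0 were 2-fold higher in PP in either cell type. The part of any of these cells in the epithelial signals was not tested.

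**Figure D4:**
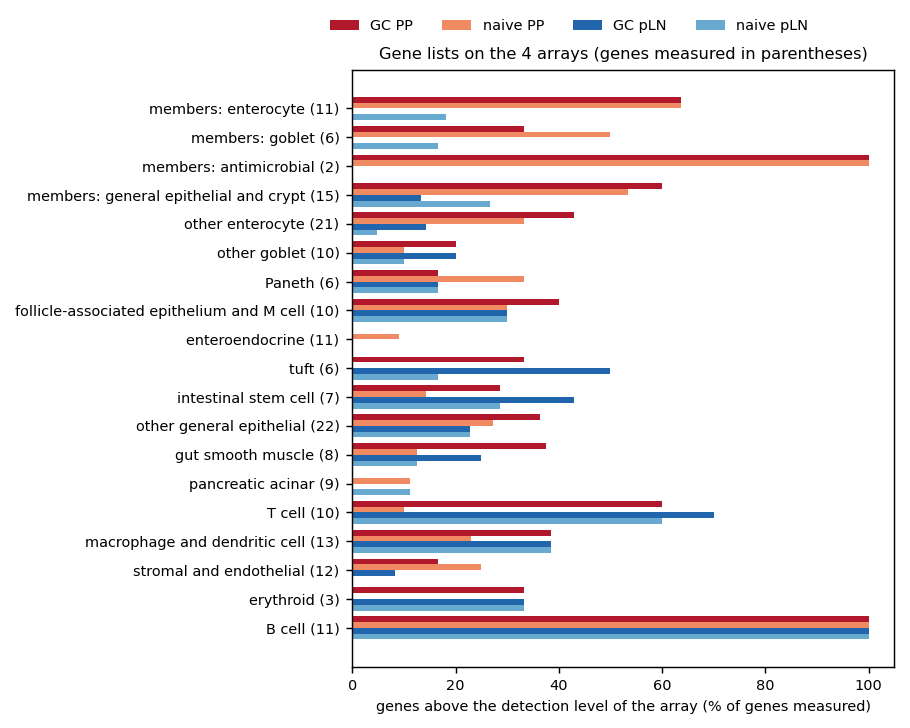
Share of the measured genes of each list above the detection level on the 4 arrays (bars, % of genes measured, 1 array each). The enterocyte and antimicrobial genes of the set have long PP bars and short or no pLN bars, while the B cell genes are detected on every array.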

How the data were processed

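Gene expression was measured on 4 single-colour Affymetrix arrays, 1 per group. Per the labels' protocols, biotinylated cRNA was made from TRIzol-extracted RNA, and signals came from GCOS, per the submitters' processing notes, its algorithm and version being not given in the sources used here. Intensity as deposited was linear, with a median of 1 on each array. Each array was rescaled to a 2% trimmed mean of 500, since the deposited trimmed means ranged from 7.35 to 10.0. An offset of 14.2, the median of 88 background probe sets, was added before log2. Of 45101 probe sets, 34958 had 1 gene symbol, 932 several and 9211 were not listed. Entrez identifiers of 34754 matched RefSeq (GRCm38.p6), which changed 0 symbols. A gene's value was that of the single probe set brightest on average (mean of log2). The contrast of GC with naive cells was fitted in R 4.3.3 with limma 3.58.1 (blocked by organ, variance trended on intensity), and p-values were adjusted over all genes tested by Benjamini-Hochberg, after a check on simulated data. Sensitivity was tried over scaling, level, offset, filter, probe sets, model and each array left out. The number of arrays limits the precision, and p-values measure only the spread between these arrays. All 34 genes and at most 4 genes of each other list, those with the highest mean PP signal, were to be named; Mep1b, Hnf4a and others so marked were added. The genes, lists and tests were chosen with earlier results of these data known. 0 columns were left unused.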

Additional observations from a re-analysis of the deposited data

How the results depend on the processing

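Counts are compared within 1.5 times and medians within the same ratio. Genes above the level numbered 14 on GC pLN and 14 on naive pLN with the level at the 75th percentile of background. On naive pLN they were 3 at the 95th percentile and 4 when probe sets were averaged. The count at least 2-fold higher in GC cells of PP was 11 at a 4-fold threshold. With dim signals set to the level, an alternative chosen after seeing the data, it was 10, the count in both cell types 7, and the medians 0.46 in GC cells and 0.79 in naive cells. The naive median was 0.94 with an offset 4 times as large and 0.71 scaled to the spike-ins, also chosen after seeing the data.

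Genes called lower in GC cells numbered 1 without the organ block, 4 with the filter on both arrays of a cell type, 0 scaled to the spike-ins and between 0 and 8 with 1 array left out (0 without GC pLN, 1 without naive PP). Those fits had no organ term, so organ and cell type are mixed in them and the lone array is assumed to vary like the others. With the filter on both arrays of a cell type, only genes also above the level in pLN could be fitted. These were 7 of the tested genes, and Krt8, Krt19 and Krt20 were not among them. Over all genes, 2136 of 10289 were called lower without the organ block. With that filter 2348 of 10126 were called lower, and scaled to the spike-ins 22 of 10294. The cause of the other shifts was not tested. Genes called higher numbered 0 under every alternative run.

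The lowest values of these genes with 1 array left out were Ckmt1 -3.84, Fabp1 -3.37, Fabp2 -2.81, Krt19 -3.86 and Krt8 -4.76 (without naive pLN), and Krt18 -1.42, Reg3b -2.58, Reg3g -2.14 and Zg16 -3.77 (without GC PP). Folds of GC over naive cells turned round as follows. Leaving out single arrays gave Ckmt1 1.30, Krt19 0.00, Krt8 0.48 (without naive PP), Fabp1 1.78 and 1.24, Fabp2 1.36 and 1.33, Krt18 0.14 and 0.86, Reg3b 0.71 and 1.46, Reg3g 1.28 and 1.85, Zg16 0.37 and 0.39 (without naive PP and without GC pLN), and Muc13 -0.49 (without GC PP) and -1.22 (without naive pLN). Scaling to the spike-ins gave Fabp1 0.30, Fabp2 0.31, Krt18 0.79, Lgals4 0.24, Reg3b 0.46 and Reg3g 0.78. Muc13 stood at -0.02 unscaled, -0.10 with quantile normalization, -0.09 with the larger offset and -0.54 with dim signals set to the level. Reg3b was 0.32 without x_at and s_at probe sets, and Reg3g 0.06 with the larger offset and 0.02 with dim signals set to the level. The organ block pairs GC with naive cells of the same organ, and the labels give no replicate numbers that would pair samples in another way.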

Other observations

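Of the 20 genes with the highest smaller difference between PP and pLN over the 2 cell types, 7 were of the set described and 13 were not. The gene with the highest such difference of all was Igha, the constant region of IgA and a marker of IgA-switched B cells and plasma cells, with 14683 on GC PP and 21321 on naive PP, against 279 on GC pLN and 41.2 on naive pLN. It was 52.7-fold higher in GC cells of PP and at least 306-fold in naive cells, and its part in the epithelial signals was not tested. Several others of the 13, named after their values were seen, are also known from gut epithelium. Lypd8, an inhibitor of flagellated bacteria in the colon, read 212 on GC PP and 228 on naive PP, against 8.01 on GC pLN and 1.80 on naive pLN. Reg1, another member of the Reg family, read 134 on GC PP and 125 on naive PP, against 0.902 on GC pLN and 2.40 on naive pLN. Dmbt1, a secreted scavenger receptor, read 93.1 on GC PP and 244 on naive PP, against 0.902 on GC pLN and 13.3 on naive pLN. Lgals2, a galectin, read 144 on GC PP and 362 on naive PP, against 11.3 on GC pLN and 9.10 on naive pLN. All pLN signals of these 4 genes were below the detection level of their array. Others of the 13 are not genes of epithelium, such as Cd80, a costimulatory ligand, with 191 on GC PP and 118 on naive PP, against 20.9 on GC pLN and 10.9 on naive pLN.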
